A study of Mus musculus with 9 samples.

Results

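The genes described are 10 receptors through which hypothalamic neurons read signals of energy state: Lepr, Mc3r, Mc4r, Insr, Ghsr, Glp1r, Npy1r, Npy2r, Htr2c and Cnr1. They were chosen by name from the pathways of appetite, by a rule that uses no measured value, though with earlier results of these data known. All 10 are among the 13588 entries of the deposited table. Expression was measured by RNA-seq in laser-captured regions of the mediobasal hypothalamus of 9 male mice, 1 library per mouse, frozen 10 weeks after a viral injection given in adulthood. All 9 mice, controls included, were C57/BL6 animals homozygous for a floxed Snord116 allele (Snord116tm1Uta/J). The 3 AAV-GFP control mice received a vector in which the CMV promoter drives GFP, and the 6 AAV-Cre mice one in which the CAG promoter drives Cre. The paper also lists a higher titre for the Cre vector, so Cre, promoter and vector dose cannot be told apart between these groups. Neither promoter limits the vector to a cell type, and the captured regions were chosen after the pattern of Cre staining in neighbouring sections, with matched regions in controls. By weight, the 6 AAV-Cre mice fall into subsets of 3. Titles and weight labels contradict each other on which subset is obese, so the subsets are named here by the weight label, as labelled obese and labelled nonobese. Of 17 Snord116 genes in the reference, 0 had an entry, so the deleted RNA itself could not be read from this table.

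Leptin from fat and insulin from the pancreas reach the hypothalamus with the blood and report stored energy. In the arcuate nucleus they act on Pomc neurons, whose melanocortin peptides curb feeding, and on Agrp neurons, which promote it and release neuropeptide Y. Ghrelin and glucagon-like peptide 1 report on the gut, while serotonin and endocannabinoids tune the same circuits. The question here is whether the receptors for these signals are transcribed at other levels after Cre was delivered, or in the mice that became obese.

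Values are given as signal, which is CPM (a gene's reads scaled to a fixed library total) computed on library sizes that TMM had scaled. Each library held between 3929672 and 5766994 reads on listed entries. The reads behind each value could be recovered, and 3 reads, the least taken as detected, corresponded to a signal between 0.525 and 0.786. The Cre entry had between 1011 and 37704 reads in the AAV-Cre libraries and between 0 and 5 in the AAV-GFP libraries. Its signal was 1330 and 234.9 in mice 1 and 3 labelled obese and between 4644 and 8557 in the other AAV-Cre mice. Differences are log2 fold changes (log2 FC) on the log2(signal + 1) scale, which understates changes of low genes. They were tested with limma across 13506 entries, all 10 receptors among them, and a call is a Benjamini-Hochberg FDR under 0.1. With 3 mice against 3, a 2-sided exact permutation test cannot go below 0.1, and with 6 against 3 it cannot go below 0.0119.

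Among the serotonin receptors, Htr2c carries a stretch of coding sequence that is also found, in complement, in a family of small nucleolar RNAs of the Prader-Willi region, the neighbours of Snord116. That stretch is shown because it ties a receptor of this group to the locus under study. It lies on the + strand at chrX:147169689-147169706 (GRCm38), within exon 5 of the transcript Htr2c-201. Capitals mark the 18 bases of the receptor that match, and the second line is the small RNA's element.
Htr2c site: gcaataCGTAATCCTATTGAGCATagccgg
snoRNA element: ATGCTCAATAGGATTACG
Of 1507 annotated snoRNAs searched, 105 held this element, all of them on chromosome 7 between 59344073 and 59617690. Only 4 of these 105 had entries in the table. Their copies are nearly identical, so how reads were split among them is uncertain. Their summed reads numbered 238 to 615 for AAV-GFP and 336 to 833 for AAV-Cre. Scaled to library size as in the rest of the table, these were 46.2 to 153.3 and 78.1 to 145.8. Gene-level reads do not resolve editing or splicing at the Htr2c site.

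Compared per length, Cnr1 and Npy2r had the highest medians of the group and Mc4r the lowest. Cnr1 had a median of 8.83 signal per kb of merged exons over the 9 libraries, and Npy2r had 7.98. Npy1r (4.99) and Insr (4.91) lay close to the median of all entries with a length, which was 4.72 signal per kb. The other receptors were below it. Mc3r had 3.72 signal per kb, Glp1r 2.09, Htr2c 1.99, Lepr 1.76, Ghsr 1.53 and Mc4r 1.04. No receptor differed from its neighbour in this order by more than 1 SD of the log2 differences over the 9 libraries. Cnr1 was above each of Mc3r, Glp1r, Htr2c, Lepr, Ghsr and Mc4r in 9 of 9 libraries, by 3.55 ± 1.79 on the log2 scale (SD) for Mc4r. Mc4r, the receptor best known from the paraventricular nucleus, ranked at the 12.8th percentile of all entries, and Cnr1 at the 69.2nd.

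**Figure D1:**
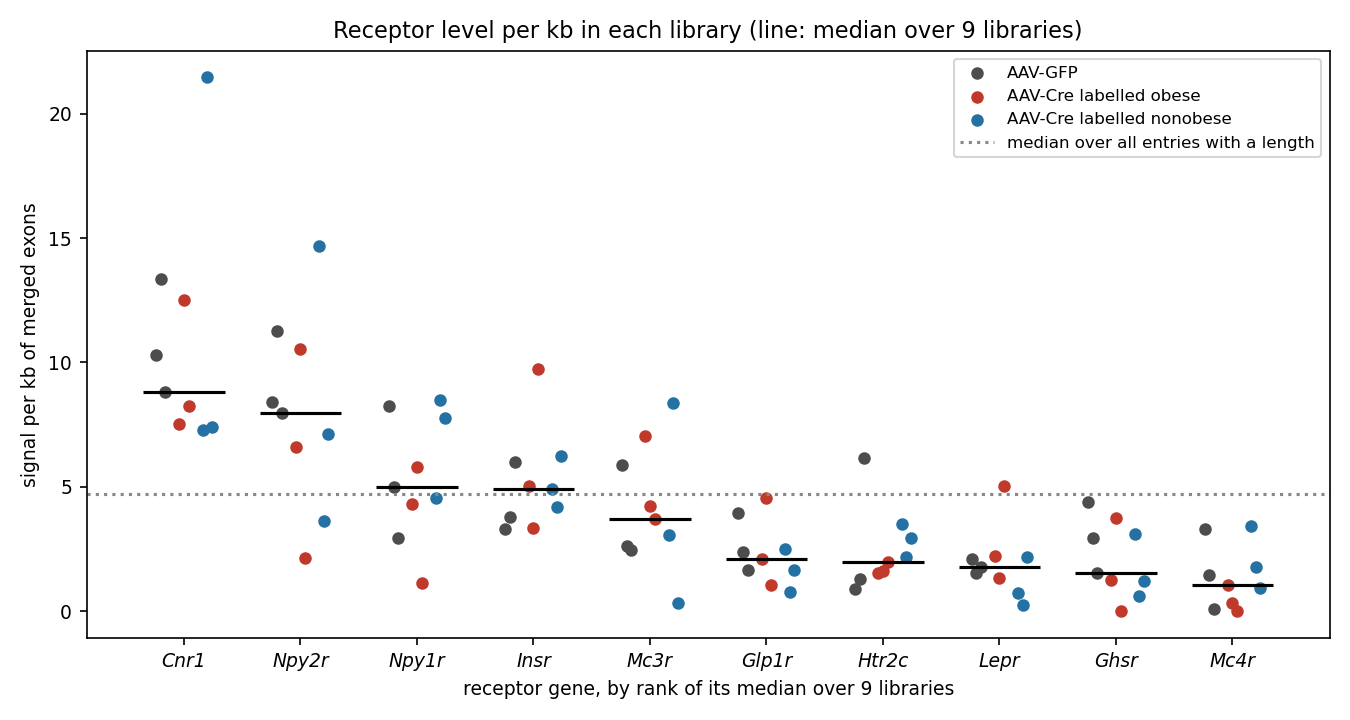
Signal per kb of merged exons (vertical axis) of each receptor in each of the 9 libraries, ordered by the median (black line), with the median of all entries (4.72, dotted line). Cnr1 and Npy2r have the highest medians, and the points of neighbouring receptors overlap throughout the order.

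No receptor was called in any comparison. Of the 10, 0 passed in AAV-Cre mice labelled obese against AAV-GFP (0.555% of all entries were called), 0 in those labelled nonobese against AAV-GFP (0.0148%), 0 in the pooled AAV-Cre mice against AAV-GFP (0.0222%), and 0 between the AAV-Cre subsets (0.948%). Without adjustment, p was under 0.05 for 0, 0, 0 and 1 of the 10, where all entries gave 9.88%, 2.27%, 3.14% and 11.4%. The groups did not overlap for 0, 0, 0 and 1 receptors, where 14.5%, 9.72%, 2.01% and 13.3% of all entries did not. Run on the recovered reads, DESeq2 and both edgeR tests (likelihood ratio and quasi-likelihood) also called 0 receptors in each comparison. The median log2 FC of the receptors was -0.20, -0.16, -0.15 and 0.31 in the 4 comparisons, beside -0.04, -0.02, -0.03 and 0.02 over all entries. The comparisons against AAV-GFP share the same 3 control libraries. In bulk tissue, fewer cells that express a receptor and less RNA in each of them cannot be told apart.

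**Figure D2:**
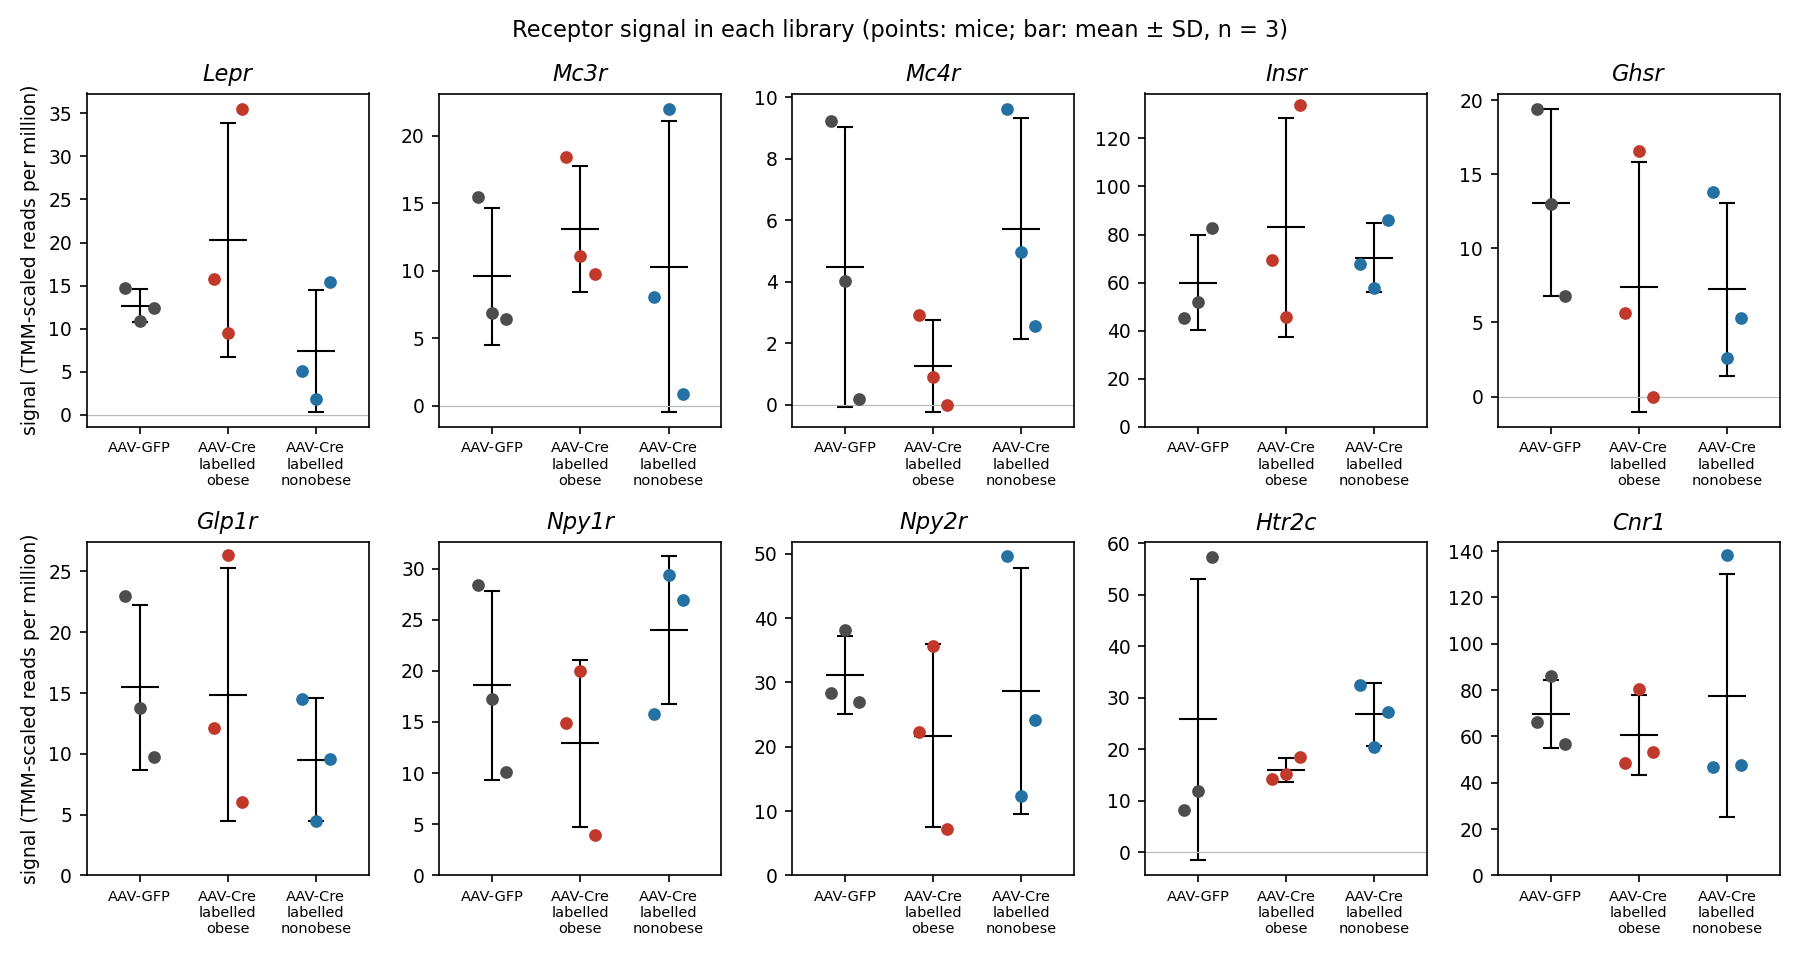
Signal of each receptor (vertical axes) in each mouse (points) by group, with the mean and SD of 3 mice (black bars). The groups overlap for every receptor and pair of groups except Htr2c, where the mice labelled nonobese (20.4 to 32.5) lie above those labelled obese (14.2 to 18.6).

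The leptin receptor, Lepr (ENSMUSG00000057722, chromosome 4: 101717404 to 101815352, GRCm38), gave the lowest p of the group. Its signal was 14.7, 10.9 and 12.4 in AAV-GFP mice 1 to 3. In AAV-Cre mice labelled obese it was 15.7, 9.53 and 35.5, and in those labelled nonobese 5.07, 1.83 and 15.4. The controls were close together, while the AAV-Cre mice covered a 19.4-fold range, from 7 to 153 reads, and the subsets overlapped. Lepr was lower in mice labelled nonobese than in those labelled obese by a log2 FC of -1.51 ± 0.65 (SE; 95% interval -2.85 to -0.16), with an unadjusted p of 0.0299 in limma, but did not pass the correction (FDR = 0.372). The exact permutation test gave p = 0.2. Leaving out 1 mouse at a time moved this log2 FC between -2.17 and -0.90 and its FDR between 0.119 and 0.736. Against AAV-GFP, the log2 FC was 0.45 ± 0.65 in mice labelled obese (FDR = 0.868) and -1.05 ± 0.65 in those labelled nonobese (FDR = 0.999).

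The highest Lepr signal, 35.5, was in mouse 3 labelled obese, which also stood apart in its marker genes. The summed signal of 6 leukocyte and plasma cell markers was 3760 and 6068 in mice 1 and 3 labelled obese and 78.5 in mouse 2. Controls had 6.80 to 9.96, and mice labelled nonobese had 33.9 to 41.2. The sums of 6 microglia markers were 532.3 and 480.2 in these mice and between 86.4 and 122.0 in all others. The Cre signal was also lowest in this pair, as given above. The part of these cells, or of the Cre level, in the receptor values was not tested. Leaving out both of these mice, a choice made after seeing the data, left 1 library labelled obese. No receptor had been called with all libraries, so a count of 0 receptors there adds nothing.

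The insulin receptor, Insr (ENSMUSG00000005534, chromosome 8: 3122061 to 3279617), varied least of the 10. Its signal was 45.4, 52.1 and 82.5 in AAV-GFP mice, 69.3, 45.8 and 133.8 in mice labelled obese, and 67.5, 57.6 and 86.0 in those labelled nonobese. All groups overlapped, and the highest value was again mouse 3 labelled obese. Over the pooled AAV-Cre mice against AAV-GFP, the fold was 1.24 (95% interval 0.827 to 1.87), and no Insr comparison passed (lowest FDR 0.755).

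Of the 22 listed genes of leptin and insulin signalling, all with an entry, 0 passed against AAV-GFP in any of the 3 comparisons. Of all entries, 0.555%, 0.0148% and 0.0222% passed there. Between the subsets, 5 of the 22 had an unadjusted p under 0.05 (11.4% of all entries), 31.8% had groups that did not overlap (13.3% of all entries), and 1 passed, where 0.948% of all entries did. That gene was Stat3, the transcription factor that leptin receptor signalling activates. Its signal was 97.7, 93.3 and 106.8 in AAV-GFP mice, 177.7, 87.4 and 204.0 in mice labelled obese, and 75.8, 60.8 and 61.9 in those labelled nonobese. The 3 mice labelled nonobese lay below the 6 other mice, and mice 1 and 3 labelled obese lay above all others. Mouse 2 labelled obese was below each of the controls. Mice 1 and 3 labelled obese also had the high leukocyte and microglia marker sums given above, and the part of these cells in the Stat3 values was not tested. Stat3 was lower in mice labelled nonobese than in those labelled obese by a log2 FC of -1.15 ± 0.26 (limma, FDR = 0.0386, lower in 3 of 3 mice). Leaving out mouse 1 labelled obese gave an FDR of 0.252, leaving out mouse 3 labelled obese 0.243, leaving out mouse 2 labelled nonobese 0.148 and leaving out mouse 3 labelled nonobese 0.15. With only the subsets in the fit the FDR was 0.124, and without the variance trend 0.306. Socs3, which restrains leptin receptor signalling, had signals of 3.99, 0.766 and 1.75 in AAV-GFP mice, of 30.1, 20.4 and 3.95 in mice labelled obese, and of 4.90, 7.07 and 3.20 in those labelled nonobese. Mice labelled obese overlapped both other groups, and their log2 FC of 2.36 ± 0.79 against AAV-GFP did not pass (FDR = 0.254).

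The melanocortin receptors bind the peptides of Pomc and their antagonist Agrp. Mc3r (ENSMUSG00000038537, chromosome 2: 172248492 to 172251114), which is found in the arcuate nucleus itself, had a signal of 15.5, 6.89 and 6.41 in AAV-GFP mice. It was 18.4, 11.1 and 9.76 in mice labelled obese and 8.05, 22.0 and 0.854 in those labelled nonobese. The nonobese subset alone held both the highest and the lowest Mc3r value of the series, from 84 and 4 reads. No Mc3r comparison passed (log2 FC 0.47 ± 0.75, FDR = 0.883, in mice labelled obese against AAV-GFP).

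Mc4r (ENSMUSG00000047259, chromosome 18: 66857704 to 66860506) was the scarcest receptor, with 162 reads over all libraries. Its signal was 9.23, 4.02 and 0.194 in AAV-GFP mice, 2.92, 0.908 and 0 in mice labelled obese, and 9.62, 4.98 and 2.56 in those labelled nonobese. The library at 0 reads allows a signal of up to 0.697, and mouse 3 of the AAV-GFP group, with 1 read, was no better resolved. The mean was 4.48 ± 4.53 (SD) in AAV-GFP mice, 1.28 ± 1.50 in mice labelled obese and 5.72 ± 3.59 in those labelled nonobese, and the groups overlapped. Between the subsets the log2 FC was 1.64 ± 0.94 (FDR = 0.523), and its interval, from -0.31 to 3.58, was the widest of any receptor in that comparison. Over the pooled AAV-Cre mice against AAV-GFP, the fold was 0.876 with an interval of 0.249 to 3.08.

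Ghsr, the ghrelin receptor (ENSMUSG00000051136, chromosome 3: 27371351 to 27378010), had the largest within-group spread on the log2(signal + 1) scale. Its signal was 19.4, 13.0 and 6.80 in AAV-GFP mice, 5.62, 16.6 and 0 in mice labelled obese, and 13.8, 2.62 and 5.33 in those labelled nonobese. Each AAV-Cre subset had 1 mouse within the range of the controls and 2 below it. Its within-group SD of 1.41 on the log2 scale was at the 96.0th percentile of all entries tested, whose median was 0.534. By edgeR's biological coefficient of variation, which is spread beyond counting error, Mc4r (1.05) varied more than Ghsr (0.836) and Mc3r (0.682), beside a median of 0.417 over all entries. The log2 FC against AAV-GFP was -1.42 ± 0.86 in mice labelled obese (FDR = 0.617), the lowest FDR of the 10 receptors in that comparison. It was -0.91 ± 0.86 in mice labelled nonobese (FDR = 0.999). For all AAV-Cre mice the fold was 0.446 with an interval of 0.151 to 1.32.

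Glp1r, the receptor of glucagon-like peptide 1 (ENSMUSG00000024027, chromosome 17: 30901817 to 30940791), had a signal of 22.9, 13.8 and 9.71 in AAV-GFP mice, 12.1, 26.3 and 6.04 in mice labelled obese, and 14.5, 4.45 and 9.60 in those labelled nonobese. The groups overlapped. Means were 15.5 ± 6.77, 14.8 ± 10.4 and 9.53 ± 5.04 (SD, n = 3), and the log2 FC of mice labelled nonobese against AAV-GFP was -0.69 ± 0.61 (FDR = 0.999).

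The neuropeptide Y receptors divide by role, Npy1r being the main receptor on target neurons and Npy2r the receptor by which neuropeptide Y neurons sense their own release. Npy1r (ENSMUSG00000036437, chromosome 8: 66697192 to 66706792) had a signal of 28.4, 17.2 and 10.1 in AAV-GFP mice, 14.8, 20.0 and 3.95 in mice labelled obese, and 15.7, 29.3 and 26.9 in those labelled nonobese. Its mean was 24.0 ± 7.24 in mice labelled nonobese and 12.9 ± 8.18 in those labelled obese, and these subsets overlapped. The log2 FC between them was 1.04 ± 0.56 (FDR = 0.494).

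Npy2r (ENSMUSG00000028004, chromosome 3: 82538383 to 82548084) had a signal of 28.4, 38.1 and 27.0 in AAV-GFP mice, 22.3, 35.6 and 7.20 in mice labelled obese, and 49.7, 12.3 and 24.1 in those labelled nonobese. The controls lay within a 1.41-fold range and the AAV-Cre mice within a 6.90-fold range, with values on both sides of the controls. The log2 FC of all AAV-Cre mice against AAV-GFP was -0.52 ± 0.45 (FDR = 0.999, exact permutation p = 0.417).

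Htr2c, the serotonin receptor whose site is printed above (ENSMUSG00000041380, chromosome X: 146962513 to 147197277), was the only receptor with groups that did not overlap. Its signal was 8.23, 11.9 and 57.3 in AAV-GFP mice, 14.2, 15.2 and 18.6 in mice labelled obese, and 32.5, 20.4 and 27.3 in those labelled nonobese. The 3 mice labelled nonobese were above the 3 labelled obese, while AAV-GFP mice lay on both sides of all of them. This is 1 of 10 receptors, where 13.3% of all entries had subsets that did not overlap. The difference of 0.69 ± 0.54 on the log2 scale did not pass (limma, FDR = 0.660), and the exact permutation p was 0.1, the smallest it can give. The AAV-GFP mean of 25.8 ± 27.3 (SD) rested on mouse 3, and without that library the log2 FC of mice labelled obese against AAV-GFP changed from -0.17 to 0.63. Snora35, a small RNA gene within an Htr2c intron that shares no exon bases with it, had 53, 32 and 90 reads in AAV-GFP mice, 52, 41 and 50 in mice labelled obese, and 72, 70 and 212 in those labelled nonobese.

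Cnr1, the main cannabinoid receptor of the brain (ENSMUSG00000044288, chromosome 4: 33924593 to 33948831), had a signal of 66.3, 86.0 and 56.9 in AAV-GFP mice, 48.4, 80.6 and 53.2 in mice labelled obese, and 46.9, 138.3 and 47.8 in those labelled nonobese. Apart from mouse 2 labelled nonobese, the AAV-Cre mice were within or just below the range of the controls. The fold of all AAV-Cre mice against AAV-GFP was 0.923, with an interval of 0.602 to 1.41 (FDR = 0.999). Cnr1 and Insr were the receptors with most reads, 2827 and 2974 over all libraries, and had the narrowest intervals.

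**Figure D3:**
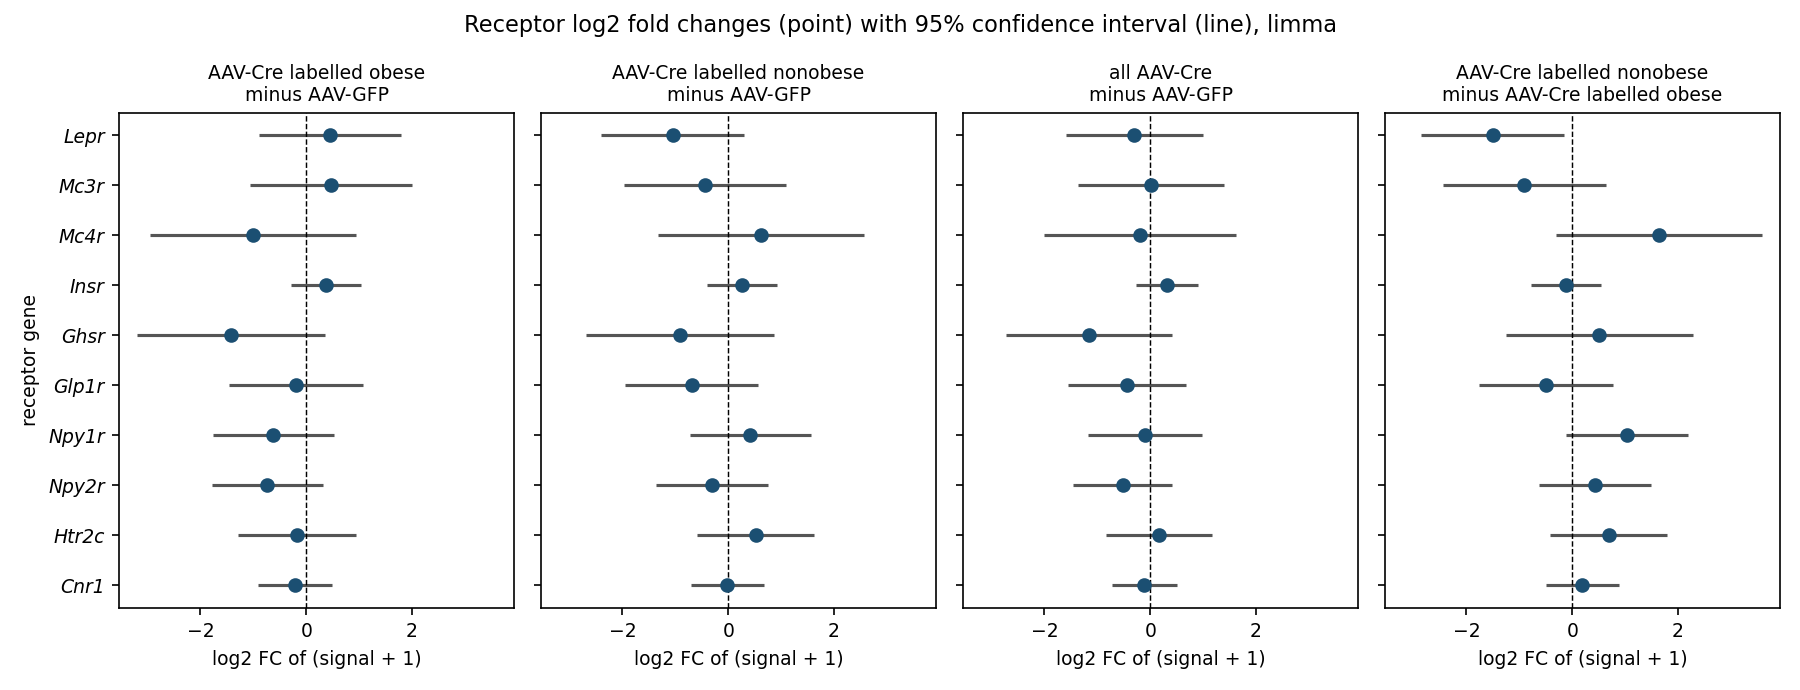
Log2 FC of each receptor (points) with its 95% confidence interval from limma (lines) in the 4 comparisons, on a common horizontal axis. Every interval includes 0 except that of Lepr between the AAV-Cre subsets (-2.85 to -0.16), and the intervals of Mc4r, Ghsr and Mc3r are the widest.

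The receptors did not vary together as a group. Over the 45 pairs, the median Pearson r of log2(signal + 1) across the 9 libraries was -0.16, and 20 pairs were above 0. These values describe 9 libraries that share group, dissection and scaling, and are given without a test. Ghsr moved most closely with Npy2r (r = 0.928, Spearman's rho = 0.833) and Glp1r (r = 0.843, rho = 0.95), and without the 2 libraries farthest from the Ghsr median r was 0.939 and 0.913. The most opposed pair was Insr and Ghsr (r = -0.828, rho = -0.783), which dropped to r = -0.445 without the 2 libraries farthest from the Insr median.

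The same libraries differed in genes that mark hypothalamic nuclei. Nr5a1, which defines the ventromedial nucleus, had a signal of 35.2, 33.9 and 0 in AAV-GFP mice, 0, 46.1 and 0 in mice labelled obese, and 15.2, 16.2 and 0 in those labelled nonobese. In the 4 libraries with 0 reads of Nr5a1, Ghsr was 6.80, 5.62, 0 and 5.33. Insr was 82.5, 69.3, 133.8 and 86.0 there. The lowest Ghsr value above 0, 2.62, was in mouse 2 labelled nonobese, where Nr5a1 was at 16.2. Fezf1, another ventromedial marker, was between 0 and 3.63 in these 4 libraries and between 12.1 and 52.6 in the other 5, whereas Adcyap1 was at 50.1 in AAV-GFP mouse 3, near the 55.1 and 43.7 of the other controls. The summed signal of all 4 ventromedial markers ranged from 52.0 to 158.8 in AAV-GFP mice, from 26.3 to 144.3 in mice labelled obese and from 39.3 to 206.4 in those labelled nonobese. Of 8 arcuate markers 7 had an entry (Kiss1 had none), and their sums overlapped between groups, from 136.1 to 408.1, from 245.1 to 331.3 and from 165.0 to 406.5. Of 5 paraventricular markers 3 had an entry, with Avp and Oxt absent, and their sums were at most 84.1. Only 1 of 5 choroid plexus markers (Kl) and 1 of 5 tanycyte and ependyma markers (Col23a1) had an entry. The sums of 8 pan-neuronal markers were 2396 to 2515 in AAV-GFP mice, 2093 to 2511 in mice labelled obese and 2638 to 2750 in those labelled nonobese. The last group lay above the others in this sum, to which Snap25 gave most, but in none of the 8 markers alone. Mouse 2 labelled nonobese had the lowest Gad1 (73.1), Gad2 (82.2) and Tubb3 (101.6) of the 9 libraries. The sums of 6 oligodendrocyte markers were 834.9 to 1080 in mice labelled obese and 1160 to 2556 in all others. Those of 6 endothelial markers were 144.8 to 159.8 in mice labelled obese and 75.0 to 112.6 in all others, and those of 6 astrocyte markers were 2260 to 3014 and 1748 to 2361. Of 4 dorsomedial and lateral markers 2 had an entry, with sums between 22.3 and 762.8 that overlapped between the groups. The part of the dissected region and of these cell types in the receptor values was not tested. Leaving out the libraries at 0 reads of Nr5a1, a choice made after seeing the data, left 1 library labelled obese. The comparisons of that subset alone are therefore not counted here. In mice labelled nonobese against AAV-GFP, with 4 libraries left, limma called 2 of 13506 entries and 0 receptors. There 2 of the 10 receptors had an unadjusted p under 0.05, as did 458 of all entries. In all AAV-Cre mice against AAV-GFP, with 5 libraries left, it called 3 entries and 0 receptors. There 0 receptors and 425 of all entries had an unadjusted p under 0.05.

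**Figure D4:**
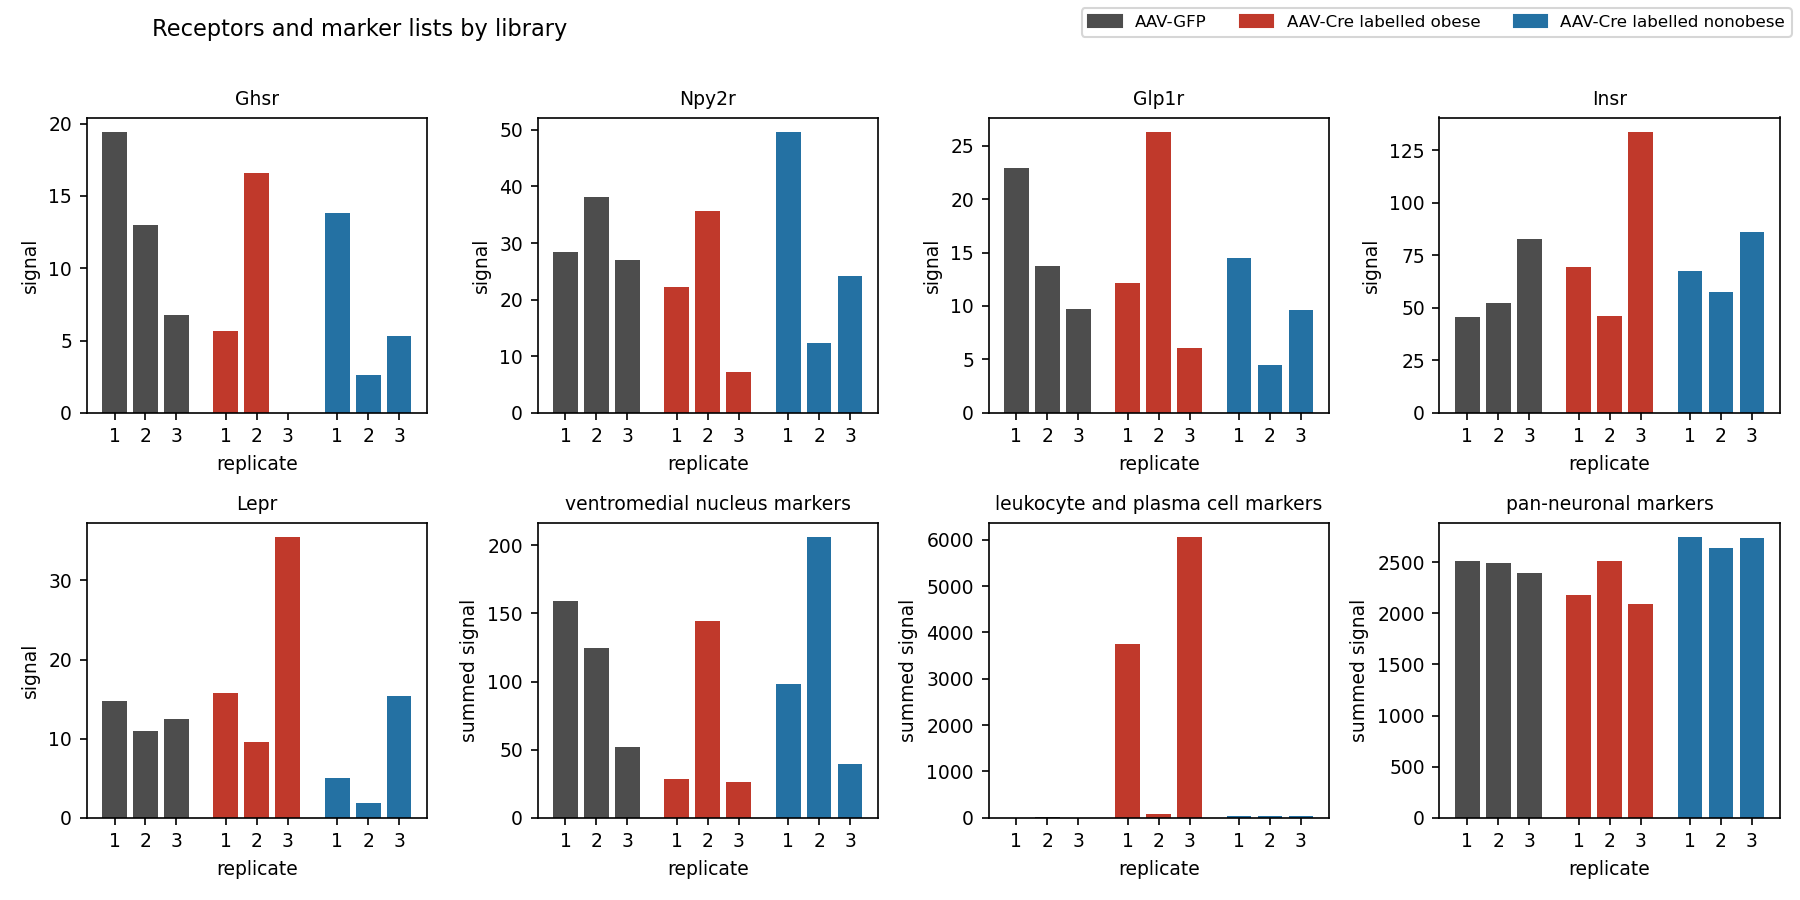
Signal of 5 receptors and summed signal of 3 marker lists (vertical axes) for replicates 1 to 3 of each group (bars). Ghsr, Npy2r and Glp1r are high in many of the same libraries, mouse 3 labelled obese is high in Lepr and Insr, and the leukocyte and plasma cell markers are high in mice 1 and 3 labelled obese.

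The entries whose pattern was most like a receptor's were taken among 11297 entries with a median signal of at least 5, by Pearson r over the 9 libraries, as a description with no test. For Lepr these were Soat1 (r = 0.971) and Slc4a7 (0.949), and for Insr they were Maoa (0.946) and Bad (0.942). Mc3r was nearest to Tmx1 (0.916) and Zbtb24 (0.899). Ghsr was nearest to Syndig1l (0.969) and Impdh1 (0.966), and Glp1r to Jup (0.928) and Cpped1 (0.918). For Npy1r they were Acvr1c (0.969) and Slc1a1 (0.950), for Npy2r Mest (0.942) and Pygo2 (0.931). Htr2c was nearest to Prdm16 (0.920) and Etl4 (0.919), and Cnr1 to Ryr2 (0.959) and Rreb1 (0.946). None of these was another of the 10 receptors. Mc4r, with a median signal of 2.92, was left out.

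Of the ligands of these receptors and their enzymes, 0 passed, where 0.555%, 0.0148%, 0.0222% and 0.948% of all entries did in the 4 comparisons. At an unadjusted p under 0.05 there were 0, 0, 0 and 1 (Agrp), where all entries gave 9.88%, 2.27%, 3.14% and 11.4%. Groups did not overlap for 0, 0, 0 and 1 of them, where 14.5%, 9.72%, 2.01% and 13.3% of all entries did not. Of 16 listed ligands and ligand enzymes 9 had an entry, and Lep, Ins1, Ins2, Ghrl, Gcg, Pyy and Tph2, whose products are made mainly outside the hypothalamus, had none. No entry had fewer than 50 reads in total, so the lack of an entry does not show that a gene was not expressed. Pomc had a signal of 100.5, 64.7 and 8.16 in AAV-GFP mice, 36.0, 82.8 and 4.65 in mice labelled obese, and 71.2, 92.5 and 12.8 in those labelled nonobese. Agrp was at 14.5, 5.94 and 2.33 in AAV-GFP mice, 0, 8.85 and 0 in mice labelled obese, and 3.67, 17.8 and 13.9 in those labelled nonobese. Its log2 FC between the subsets was 2.35 ± 0.92 (FDR = 0.311). For both ligands the controls spanned a wide range, and each group overlapped the others.

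Among partners and relatives of the receptors, 0 of 16 coupling proteins and accessory factors and 0 of 13 family relatives with an entry passed in any comparison. Of all entries, 0.555%, 0.0148%, 0.0222% and 0.948% passed. At an unadjusted p under 0.05 there were 2, 0, 1 and 2 of the 16, and 0, 2, 1 and 3 of the 13, where all entries gave 9.88%, 2.27%, 3.14% and 11.4%. Of 28 other appetite receptors, 6 had a log2 FC above 0 in mice labelled obese against AAV-GFP, where 47.0% of all entries did, and the list median was -0.39 beside -0.04. In that comparison 6 of the 28 had an unadjusted p under 0.05 (9.88% of all entries), and 32.1% had groups that did not overlap (14.5% of all entries). Mice 1 and 3 of this subset also stood apart in leukocyte and microglia markers, and all 3 in oligodendrocyte and endothelial markers, as given above, and the part of these in the receptor values was not tested. Of the 28, 1 passed in each of 2 comparisons. That gene was Prlr, the prolactin receptor. Its signal was 113.7, 79.7 and 68.2 in AAV-GFP mice, 36.4, 33.1 and 12.8 in mice labelled obese, and 65.1, 121.8 and 50.1 in those labelled nonobese. All 3 mice labelled obese were below the other 6. Prlr was lower in mice labelled obese than in AAV-GFP mice by a log2 FC of -1.73 ± 0.36 (limma, FDR = 0.0332), and higher in mice labelled nonobese than in those labelled obese by 1.52 ± 0.36 (FDR = 0.0569). The first call was lost without mouse 3 labelled obese (FDR = 0.205), without mouse 1 of the AAV-GFP group (FDR = 0.302) and without the variance trend (FDR = 0.416). The second was lost under 8 of the alternatives that kept all libraries or left out 1, with FDRs up to 0.348. No comparison of the 28 receptors with mice labelled nonobese against AAV-GFP passed.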

How the data were processed

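Reads were mapped by the authors to GRCm38 with TopHat. The submitters' processing notes also name CASAVA 1.7, TopHat2 2.0.11, HTSeq, edgeR and limma, and the strand setting of the counting is not given in the sources used here. What the authors deposited is a signal: reads per gene over a TMM-scaled library size, as in CPM. The values sum to between 954378 and 1046542 per library. CPM had been planned for, and the planned test was kept. All values (100%) were whole numbers of reads within a tolerance of 0.01, so reads were recovered.

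On log2(signal + 1), limma 3.58.1 (R 4.3.3) was fitted with a variance trend to the 3 groups, and to 2 groups for all AAV-Cre mice. An entry was tested where 3 or more libraries reached a signal of 1. Alternatives were other pseudocounts (0.1 or 5), a filter at 5 or none, centring on library medians, no trend, only the groups compared, an FDR of 0.05, edgeR 4.0.16 and DESeq2 1.42.0 on recovered reads, a replicate block, and leaving out each mouse. Replicate numbers were taken from titles and do not mark the same animal. Procedures were tested on simulated data. Symbols were matched for 13446 of 13586 Ensembl identifiers, and positions and sequences come from GENCODE M21 (GRCm38). Exons of the 10 receptors are shared with no other gene.

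The members and gene lists were chosen with earlier results of these data known. The genes named are all 10 receptors, listed pathway genes with an FDR under 0.1, the 2 entries most like each receptor, and a few named for background after their values were seen (Socs3, Pomc, Agrp, Snora35 and marker genes). The floor of 3 reads covers counting error only.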

Additional observations from a re-analysis of the deposited data

Results flagged for a closer look

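Among the 6 AAV-Cre mice, 2 receptor values stood apart from the others of their receptor by Dixon's criterion. Mc3r had a signal of 0.854 in mouse 3 labelled nonobese, where the other AAV-Cre mice had between 8.05 and 22.0. Npy1r had a signal of 3.95 in mouse 3 labelled obese, where the others had between 14.8 and 29.3. The gap was tested for 10 receptors in this group of 6, and chance alone flags 0.5 of 10 on average.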

How the results depend on the processing

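No receptor was called in any of the 4 comparisons under any alternative that was run, so their counts stayed at 0. Of 696 receptor values under alternatives, 643 kept their sign and 53 changed it, all without a call, and the cause was not tested. DESeq2's and edgeR's values for mice labelled nonobese against AAV-GFP had the other sign for Mc3r (0.10 by each of the quasi-likelihood test, the likelihood ratio test and DESeq2) and Cnr1 (0.15, 0.15 and 0.16). For all AAV-Cre mice against AAV-GFP they did for Lepr (0.13, 0.13 and 0.14) and Htr2c (-0.27 by all of them), and between the subsets for Ghsr (-0.018, -0.021 and -0.043). Mc3r in all AAV-Cre mice turned to -0.085 with a pseudocount of 0.1 and -0.022 after centring on medians. Leaving out 1 mouse at a time turned the sign of 22 of 40 receptor values, with log2 FCs in the ranges that follow. In mice labelled obese against AAV-GFP, these were Lepr from -0.034 to 0.86, Insr from -0.041 to 0.72, Glp1r from -0.70 to 0.28, Npy1r from -1.03 to 0.0084 and Htr2c from -0.70 to 0.63. In mice labelled nonobese against AAV-GFP, these were Cnr1 from -0.53 to 0.24, Npy2r from -0.80 to 0.17, Mc3r from -1.27 to 0.55, Htr2c from -0.0046 to 1.32 and Mc4r from -0.23 to 1.31. In all AAV-Cre mice against AAV-GFP, these were Mc3r from -0.23 to 0.50, Mc4r from -1.05 to 0.50, Npy1r from -0.45 to 0.25, Lepr from -0.65 to 0.093, Htr2c from -0.35 to 0.98 and Cnr1 from -0.34 to 0.044. In mice labelled nonobese against labelled obese, these were Ghsr from -0.63 to 1.44, Npy2r from -0.18 to 0.90, Insr from -0.47 to 0.30, Cnr1 from -0.32 to 0.45, Mc3r from -1.74 to 0.081 and Glp1r from -0.97 to 0.0036.

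Counts of all genes called moved far more. In mice labelled obese against AAV-GFP (75) they were 36 at an FDR of 0.05, 34 and 143 with pseudocounts of 0.1 and 5, 5 without the variance trend, 260 by the likelihood ratio test, 275 by DESeq2, 1 without the libraries at 0 reads of Nr5a1, 41 without mice 1 and 3 labelled obese, and 9 to 720 with 1 mouse left out (9 without mouse 1, 720 without mouse 2 and 12 without mouse 3 labelled obese, and 9, 42 and 23 without mouse 1, 2 and 3 of the AAV-GFP group). Between the subsets (128) they were 68, 70, 214, 15, 398 and 389 under the same first settings, 64 with only these groups in the fit, 0 without the libraries at 0 reads of Nr5a1 (limma, 1145 at an unadjusted p under 0.05), 48 without mice 1 and 3 labelled obese, and 2 to 908 with 1 mouse left out (2, 908 and 3 without mouse 1, 2 and 3 labelled obese, and 79, 55 and 64 without mouse 1, 2 and 3 labelled nonobese). In mice labelled nonobese against AAV-GFP (2) they were 1 with a pseudocount of 0.1 and 6 by the likelihood ratio test. In all AAV-Cre mice against AAV-GFP (3) they were 7 by the likelihood ratio test and 9 by DESeq2, and 2 to 4 with 1 mouse left out. Settings that left a group with 1 library assume that it varies like the others.

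The replicate block gave 200 and 271 calls in place of 75 and 128, and changed no receptor's call. Taken over all entries tested, the deviations of mice of the same number were nearly uncorrelated (r from -0.020 to 0.090). A correlation over all entries cannot decide whether these mice were matched by region. The numbers were not taken as pairs. Some genes did follow the number. In each group mouse 3 had the highest Insr (82.5, 133.8 and 86.0) and the lowest Mc3r, Mc4r and Pomc. No other receptor had mouse 3 at the same end in every group. Among the marker genes, mouse 3 also had the highest Sim1 (22.3, 7.67 and 11.1) and the lowest Ghrh (1.55, 2.32 and 0.213) of each group. The paper describes its AAV-GFP controls as matched by region, and whether the numbers mark such matches was not tested. Mc4r, Ghsr and Mc3r rest on 162, 393 and 438 reads over 9 libraries, and their spread beyond counting error was also the largest of the receptors.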
